A study of Arabidopsis thaliana with 18 samples.

Results

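The 26S proteasome subunits described here are 42 genes of Arabidopsis thaliana among the 33602 annotated loci counted in each leaf library. They were chosen by gene name and identifier and not by a threshold on measured values, though with earlier results of these data known: 12 genes of the alpha rings and 10 of the beta rings of the 20S core particle, 10 genes of the RPT ATPases and 10 of the RPN non-ATPase subunits of the 19S regulatory particle. RNA was sequenced from leaves of adult Col-0 plants of 3 genotypes, which were wt, fc2 (fc2-1, a T-DNA insertion in the leader of FERROCHELATASE 2, FC2) and fc2 pub4 (fc2-1 pub4-6, which has the same insertion together with a point mutation that alters the U-box domain of PUB4, an E3 ubiquitin ligase). Each genotype was sampled in cycling light (17 d of constant light and then 2 d of 16 h light and 8 h dark) and in 24 h light (19 d of constant light), with leaves collected 1 h after subjective dawn. Each of the 6 groups held 3 libraries, and each library pooled leaves of 3 plants. Each mutation is represented by 1 allele, all fc2 pub4 plants carry fc2-1, and pub4 alone was not part of the 18 libraries.

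The 26S proteasome degrades proteins tagged with ubiquitin. The core particle is a barrel of outer alpha rings and inner beta rings, and the active sites lie on beta subunits inside it, while the regulatory particle binds tagged proteins, removes the ubiquitin, and unfolds and feeds them into the barrel through its ring of ATPases. In Arabidopsis most subunits are encoded by pairs of genes, and when the proteasome is inhibited the transcription factors NAC053 and NAC078 raise the transcripts of the subunit genes. FC2 inserts iron into protoporphyrin IX in the chloroplast, and fc2 plants moved into cycling light accumulate this photosensitizer at dawn, which makes singlet oxygen.

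The libraries held 26994499 to 39382316 counts, and every one of the 42 members was counted in every library, with 424 to 10528 counts. Levels are given as CPM, counts scaled to a common library size of 1000000 with the trimmed mean of M-values (TMM). FC2 transcripts lay at 56.2 to 68.9 CPM in fc2 pub4, 46.3 to 56.0 CPM in fc2 and 157 to 172 CPM in wt in cycling light. In 24 h light they lay at 52.6 to 58.9, 29.9 to 34.6 and 130 to 173 CPM in fc2 pub4, fc2 and wt. This separates the carriers of fc2-1 from wt, while the pub4-6 point mutation cannot be checked with counts. The summed level of 5 leaf mesophyll markers was 37196 to 38567 CPM in fc2 pub4, 17543 to 21598 CPM in fc2 and 41454 to 44039 CPM in wt in cycling light, and all 5 markers fell in fc2 against wt. In 24 h light it was 21563 to 26625 CPM in fc2 pub4, 28557 to 34908 CPM in fc2 and 28809 to 35063 CPM in wt. The summed level of 7 flower markers was 3.19 to 8.00 CPM in fc2 pub4, 10.1 to 28.0 CPM in fc2 and 8.28 to 23.0 CPM in wt in cycling light, and 7.11 to 8.99, 19.1 to 44.9 and 4.04 to 8.23 CPM in fc2 pub4, fc2 and wt in 24 h light. In both lights every fc2 pub4 library lay below every fc2 library in this sum. Of 3 root markers, EXP7 was at 0 in every library and COBL9 at or near 0, so their sum is the level of PYK10. It was 80.8 to 123 CPM in fc2 pub4, 74.8 to 107 CPM in fc2 and 33.6 to 38.5 CPM in wt in cycling light, and 63.9 to 103, 24.4 to 29.4 and 29.5 to 44.5 CPM in fc2 pub4, fc2 and wt in 24 h light. The part of these marker levels in the results was not tested, and in pooled leaves fewer cells of a type and less RNA per cell cannot be told apart.

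The members differed in level within every part of the complex. Counted per kilobase of annotated exon, RPT1A (AT1G53750) had the highest mean of the ATPase genes in fc2 in cycling light, 118 CPM per kilobase, and RPT5A (AT3G05530) had the highest in wt, 84.6 CPM per kilobase. RPT6B (AT5G20000) had the lowest mean of the ATPase genes, at 22.9 CPM per kilobase in fc2 and 10.1 CPM per kilobase in wt. Of the alpha genes PAC1 (AT3G22110) was the highest and PAF2 (AT1G47250) the lowest per kilobase in all 6 groups, and of the beta genes PBF1 (AT3G60820) was the highest in all 6 groups. The names PAB2, RPT4B, RPT6B, RPN3A and RPN11 are the usual names of loci for which the reference annotation gives a family or another name, AT1G79210, AT1G45000, AT5G20000, AT1G20200 and AT5G23540.

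The promoters of many members share a short motif. TGGGC, searched on both strands (as GCCCA on the opposite strand) from 250 bases before to 50 bases after the annotated gene start, occurred in 24 of the 42 members (57.1%), against 7132 of 27443 protein-coding nuclear genes (26%). There were 17 members with at least 2 matches (40.5%), against 14.5% of all these genes. The motif was present in 6 of 12 alpha, 8 of 10 beta, 5 of 10 RPT and 5 of 10 RPN genes. It was not particular to the members among the gene lists described further below. It occurred in 9 of 14 further subunit genes (64.3%) and 4 of 10 regulators and assembly factors (40%). It also occurred in 9 of 18 genes for ubiquitin, its activating enzymes and shuttle proteins (50%), and 5 of 10 COP9 signalosome genes (50%). The windows below show 1 match for each of 5 members with the larger increases in fc2, and for PAC1, which did not pass the test there. They are 30 bases each, from the RefSeq assembly TAIR10.1, 5′ to 3′ on the strand of the gene, with the motif in capitals.
RPT3, chr5:23568966-23568995, plus strand: aaatatcaaaacTGGGCcttactatgacaa
RPT2A, chr4:14312210-14312239, plus strand: ccaactattgttTGGGCctaatatttatat
PBB2, chr5:16250957-16250986, minus strand: ggagttaacaaaTGGGCtcattttgacaga
PBG1, chr1:21141581-21141610, plus strand: cagtattggactTGGGCtttccgatatttg
RPT1A, chr1:20068533-20068562, minus strand: agacagaaaataTGGGCctcgcttaaaaag
PAC1, chr3:7794267-7794296, minus strand: tggatcttgcatTGGGCttgattatataat
In these windows the motif began 74 bases before the gene start in RPT3, 61 in RPT2A, 49 in PBB2, 40 in PBG1, 50 in RPT1A and 22 in PAC1. RPT6B, RPN11, PBD2 and PAA2 had no match in the searched region. RPT5B had 1 match, on the opposite strand and 18 bases after the gene start, whose window is not shown. A match is a description of the sequence only.

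The comparison "fc2 vs. wt – cycling" sets the subunit genes of fc2 against those of wt in cycling light. Singlet oxygen was not measured in these libraries. Transcripts of 37 of the 42 members rose in fc2 (adjusted p under 0.01, edgeR quasi-likelihood test with Benjamini-Hochberg adjustment over 20122 genes) and none fell, where 21.8% of all genes tested rose. The median log2 fold change was 0.53, a fold of 1.44, with a range of 0.08 to 1.18, against a median of -0.0017 over all genes tested. In 40 of the 42 members every fc2 library was higher than every wt library, which held for 31.4% of all genes. The rise was shared by the parts of the complex: 10 of 12 alpha genes (median 0.49), 10 of 10 beta genes (0.54), 9 of 10 RPT genes (0.68) and 8 of 10 RPN genes (0.51). DESeq2 called 39 members higher. Scaled by library size alone, the median over all genes moved to 0.23 and that of the members to 0.76.

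**Figure D1:**
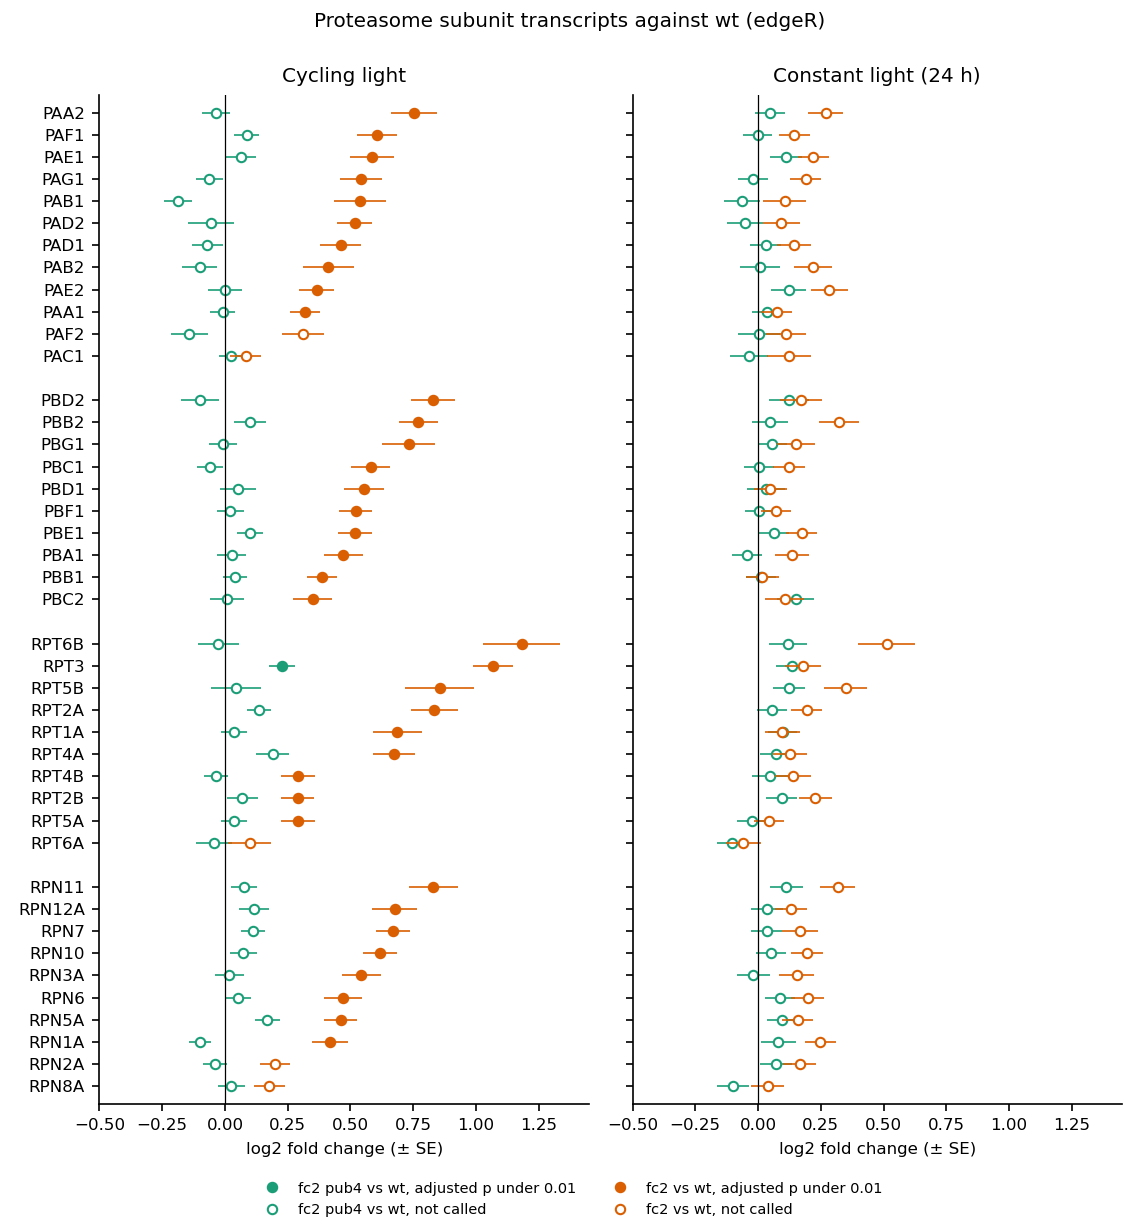
Log2 fold change against wt (x axis, with the standard error from edgeR) of each of the 42 subunit genes (y axis, grouped by part of the complex) for fc2 and fc2 pub4, in cycling light (left) and 24 h light (right); filled points passed an adjusted p under 0.01. In cycling light 37 fc2 points are filled and lie at 0.29 or above, and 1 fc2 pub4 point (RPT3, 0.23) is filled.

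Added over the 42 members, the level was 4319, 4316 and 3648 CPM in the fc2 libraries, and 2876, 2876 and 2875 CPM in the wt libraries in cycling light. The wt libraries lay within 2 CPM of each other, and fc2 replicate 3 was the lowest of its group but above all of wt. The ratio of the means was 1.42 (4094 ± 387 CPM in fc2 and 2876 ± 0.713 CPM in wt, SD, n = 3 each), and 1.68 when scaled by library size alone. The wt sums of the single parts of the complex had SDs of 4.15 to 8.28 CPM, so the wt total varied less than its parts. With 3 libraries against 3 an exact permutation test cannot go below p = 0.10, so the sums are given as values. By part, the sums averaged 991 CPM in fc2 and 729.9 CPM in wt for the alpha genes, 862 and 591 CPM for the beta genes, 1087 and 726 CPM for the RPT genes, and 1155 and 829 CPM for the RPN genes.

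**Figure D2:**
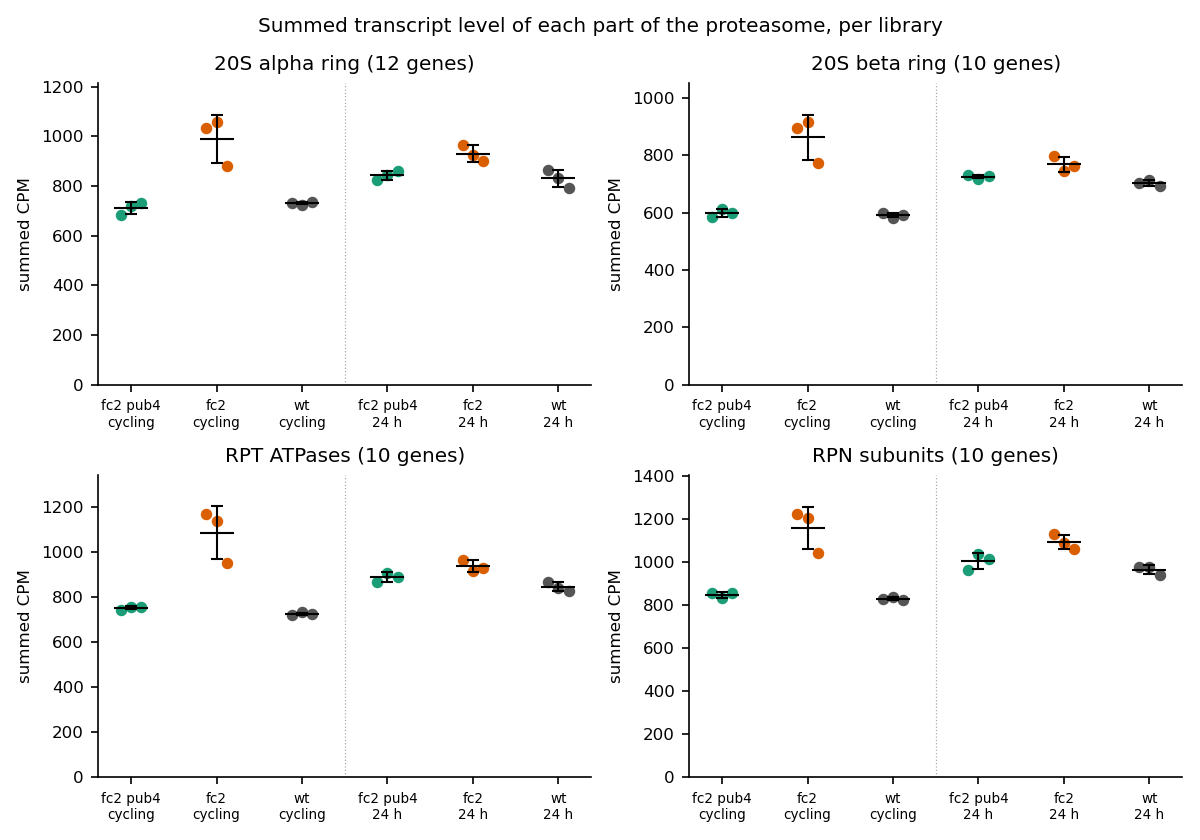
Summed CPM (y axis, from 0) of the alpha, beta, RPT and RPN genes in each library (points), with the mean and SD of each group (bar and whiskers, n = 3), for fc2 pub4, fc2 and wt in cycling and 24 h light. In cycling light the 3 fc2 libraries lie above all fc2 pub4 and wt libraries in every part, and the lowest fc2 library is replicate 3.

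The ATPases of the regulatory particle held the members with the largest fold changes of fc2 over wt in cycling light. RPT6B, which with RPT6A encodes the ATPase RPT6, was at 48.6, 43.8 and 30.4 CPM in the fc2 libraries, against 19.4, 17.6 and 17.5 CPM in the wt libraries (log2 fold change 1.18 ± 0.15 SE, edgeR adjusted p = 0.000187). All fc2 libraries were above all wt libraries. RPT6A (AT5G19990), whose gene starts on chromosome 5 at 6751798 and ends at 6755315, next to RPT6B at 6756633 to 6759800 on the same strand, was at 62.5, 67.6 and 56.5 CPM in fc2 and 52.5, 62.2 and 60.9 CPM in wt. The ranges of RPT6A overlapped, and its log2 fold change was 0.10 (edgeR adjusted p = 0.36). Exact 50-base stretches found elsewhere in the genome make up 5.26% of RPT6B and 3.82% of RPT6A, so a small part of their reads could be assigned to either copy. In 24 h light RPT6B was at 49.8, 35.5 and 40.2 CPM in fc2, which overlapped its fc2 level in cycling light. In wt in 24 h light it was at 28.5, 28.8 and 30.7 CPM, above every wt library in cycling light.

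RPT3 (AT5G58290), an ATPase encoded by a single gene, was at 165, 162 and 136 CPM in fc2, against 71.3, 76.6 and 74.7 CPM in wt. This was a log2 fold change of 1.07 ± 0.08 (edgeR adjusted p = 8.94e-06), and the lowest fc2 library was above the highest wt library. RPT2A (AT4G29040), the more abundant gene of its pair, was at 172, 170 and 135 CPM in fc2 and 91.9, 91.6 and 86.3 CPM in wt (0.83 ± 0.09). RPT5B (AT1G09100), the less abundant gene of its pair, was at 41.1, 41.9 and 29.1 CPM in fc2 and 20.7, 18.8 and 22.7 CPM in wt (0.86 ± 0.14). RPT1A was at 261, 245 and 196 CPM in fc2 and 142, 153 and 144 CPM in wt (0.69 ± 0.10). In each of these genes the groups did not overlap and fc2 replicate 3 was the lowest fc2 library. The other copies, RPT2B (AT2G20140), RPT5A and RPT4B, were among the smallest increases that passed the test, with log2 fold changes of 0.29 each. RPT2B was at 51.2, 50.8 and 51.0 CPM in fc2 and 40.5, 45.6 and 40.1 CPM in wt, so in this gene replicate 3 did not stand below the others. RPT4A (AT5G43010) averaged 54.1 CPM in fc2 and 34.1 CPM in wt and also rose. RPT1B (AT1G53780), the paralogue of RPT1A, is not among the 42 members. It was at 77.0, 69.3 and 76.1 CPM in fc2 and 71.1, 71.4 and 71.7 CPM in wt, with overlap.

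**Figure D3:**
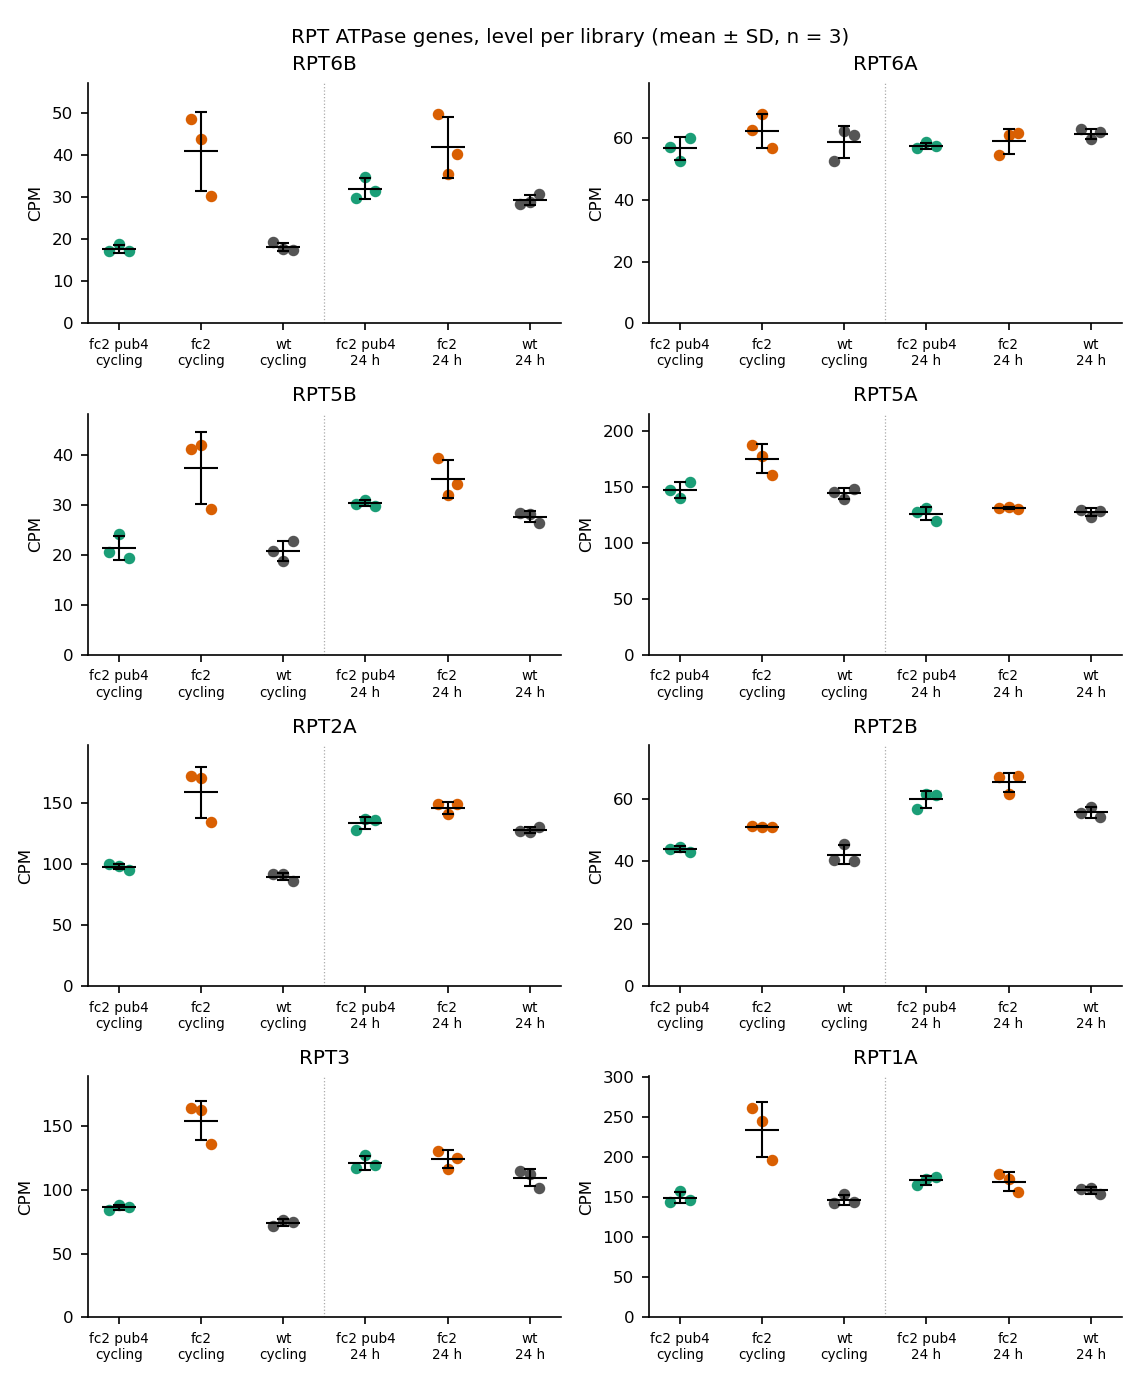
CPM (y axis, from 0) of 8 of the 10 RPT genes (all but RPT4A and RPT4B) in each library (points), with the group mean and SD (bar and whiskers, n = 3), for fc2 pub4, fc2 and wt in cycling and 24 h light. RPT6B was at 30.4 to 48.6 CPM in fc2 and 17.5 to 19.4 CPM in wt in cycling light, while RPT6A overlapped between these groups.

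All 10 beta genes rose. PBD2 (AT4G14800), one of the pair of genes for the structural subunit beta 4, was at 56.7, 60.1 and 48.3 CPM in fc2 and 31.6, 29.2 and 32.8 CPM in wt (log2 fold change 0.83 ± 0.09). PBB2 (AT5G40580), one of the pair for the catalytic subunit beta 2, was at 59.6, 58.1 and 49.8 CPM in fc2 and 33.3, 31.3 and 34.2 CPM in wt (0.77 ± 0.08). PBG1 (AT1G56450), the single gene for beta 7, was at 114, 121 and 88.9 CPM in fc2 and 65.9, 66.0 and 65.0 CPM in wt (0.73 ± 0.10). In these 3 genes the wt libraries spanned a few CPM and every fc2 library lay above them. The single-copy gene PBA1 (AT4G31300), for the catalytic subunit beta 1, averaged 116 CPM in fc2 and 84.3 CPM in wt, and PBE1 (AT1G13060), for the catalytic subunit beta 5, averaged 124 CPM in fc2 and 87.3 CPM in wt. The smallest beta increases were those of PBC2 (AT1G77440, 0.35) and PBB1 (AT3G27430, 0.39). The beta means ranged from 35.7 CPM (PBC2) to 128 CPM (PBF1) in fc2 and from 24.5 CPM (PBD1) to 90.1 CPM (PBF1) in wt.

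Of the alpha genes, which form the gated outer rings, PAA2 (AT2G05840) had the largest increase, with 126, 133 and 103 CPM in fc2 and 73.1, 70.9 and 72.3 CPM in wt (log2 fold change 0.75 ± 0.09). Its paralogue PAA1 (AT5G35590) rose less, with 107, 112 and 99.6 CPM in fc2 and 85.4, 84.3 and 87.6 CPM in wt (0.32 ± 0.06). PAE2 (AT3G14290, 0.36) and PAB2 (0.41) were the other small increases. PAC1, a gene for alpha 3, was at 128, 126 and 115 CPM in fc2 and 116, 113 and 121 CPM in wt. It did not pass the test (0.08, edgeR adjusted p = 0.28). Its groups overlapped. PAF2 was at 33.0, 30.7 and 27.1 CPM in fc2 and 23.1, 25.1 and 25.4 CPM in wt (0.31, edgeR adjusted p = 0.011), without overlap. Another gene on the opposite strand overlaps 65.1% of the exons of PAF2, and whether reads were counted by strand is not given in the sources used here. The alpha means ranged from 30.2 CPM (PAF2) to 123 CPM (PAC1) in fc2 and from 24.5 CPM (PAF2) to 117 CPM (PAC1) in wt.

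Of the non-ATPase genes, RPN11, which encodes the deubiquitinase of the lid, had the largest increase. It was at 109, 108 and 83.4 CPM in fc2 and 55.0, 58.0 and 57.5 CPM in wt (log2 fold change 0.83 ± 0.10, edgeR adjusted p = 0.000108). RPN10 (AT4G38630), a ubiquitin receptor, was at 111, 108 and 99.1 CPM in fc2 and 72.7, 70.8 and 65.5 CPM in wt. RPN1A (AT2G20580), the docking subunit of the base, rose by 0.42 on the log2 scale, and RPN5A (AT5G09900), a scaffold subunit of the lid, by 0.46. RPN2A (AT2G32730, 0.20, edgeR adjusted p = 0.017) and RPN8A (AT5G05780, 0.18, edgeR adjusted p = 0.036) did not pass the test, although no fc2 library of either gene overlapped wt. The RPN means ranged from 80.6 CPM (RPN12A) to 174 CPM (RPN7) in fc2 and from 50.7 CPM (RPN12A) to 118 CPM (RPN1A) in wt.

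Within gene pairs the shares were mostly not constant. Counted per kilobase, RPT6B made up 46.8% ± 4.58 of the RPT6 pair in fc2 and 29.7% ± 3.16 in wt in cycling light (SD, n = 3 each). RPT2A made up 77.1% ± 2.48 of its pair in fc2 and 69.9% ± 1.29 in wt, and RPT5B 19.1% in fc2 and 13.8% in wt. PAA2 made up 46.6% ± 1.91 in fc2 and 39.4% ± 0.444 in wt, and PBB2 33.1% ± 1.17 in fc2 and 27.5% ± 0.839 in wt. In these pairs the copy with the larger fold change took a larger share in fc2, as its fold change requires. PBC2 went the other way, with 26.3%, 24.9% and 26.8% of its pair in the fc2 libraries and 29.8%, 28.2% and 29.4% in the wt libraries. In 24 h light RPT6B made up 48.9% in fc2 and 39.4% in wt, RPT5B 23.0% and 19.5%, and PBB2 34.1% and 29.5%. For these genes the mean share in fc2 was no higher in cycling than in 24 h light. RPT2A made up 71.0% in fc2 and 71.4% in wt in 24 h light, PAA2 43.7% and 40.4%, and PBC2 30.2% and 30.4%. By promoter motif, the median log2 fold change in cycling light was 0.53 in the 24 members with TGGGC, of which 21 rose. It was 0.50 in the 18 without it, of which 16 rose.

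The comparison "fc2 pub4 vs. wt – cycling" asks how far the pub4 mutation alters this in the same light. Of the 42 members only RPT3 was called higher in fc2 pub4, none was called lower, and 6.32% of all genes tested were higher. RPT3 was at 84.2, 87.9 and 86.9 CPM in fc2 pub4 and 71.3, 76.6 and 74.7 CPM in wt (log2 fold change 0.23 ± 0.05, edgeR adjusted p = 0.00583). The call was kept without fc2 pub4 replicate 2 and was lost when any other of the 6 libraries was left out. The members' median log2 fold change was 0.03, with a range of -0.19 to 0.23. An unadjusted p under 0.05 was found for 7 members, where 36.6% of all genes had one. RPT6B was at 17.3, 18.8 and 17.1 CPM in fc2 pub4, within or just below its range in wt.

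In "fc2 pub4 vs. fc2 – cycling", which sets the double mutant against its parent and shares the fc2 libraries with "fc2 vs. wt – cycling", 38 of the 42 members fell and none rose, where 19% of all genes tested fell. The median log2 fold change was -0.53. All libraries of fc2 pub4 lay below all of fc2 in 39 members, which held for 29.2% of all genes. RPT6B fell by 1.21 on the log2 scale, to a mean of 17.7 CPM in fc2 pub4, against 40.9 CPM in fc2. PBD2 followed with 28.8, 31.3 and 26.9 CPM in fc2 pub4 and 56.7, 60.1 and 48.3 CPM in fc2 (-0.93 ± 0.09). RPT3 (-0.85 ± 0.08), RPT5B (-0.82 ± 0.14) and PAA2 (-0.80 ± 0.10) came next. The smallest decreases that passed were those of RPT2B (-0.23), RPN2A (-0.25), RPN5A (-0.30), PAA1 (-0.34) and RPT4B (-0.34). PAC1 (-0.06), RPT6A (-0.15), RPN8A (-0.16) and RPT5A (-0.26) did not pass the test. The summed level of the members was 2868, 2922 and 2941 CPM in fc2 pub4, a ratio of 0.711 to fc2, and of 1.01 to wt.

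In 24 h light no member passed the test in any comparison between genotypes. In "fc2 vs. wt – 24 h", 0.315% of all genes tested passed it in either direction. With edgeR 20 members had an unadjusted p under 0.05, all of them higher in fc2, where 15.2% of all genes had one in either direction. DESeq2 called 2 members higher, RPT6B and RPN11. The log2 fold change was above 0 in 41 of the 42 members, against 48.7% of all genes, and 28 members were higher in every fc2 library than in every wt library, against 11.7% of all genes. The median was 0.15. RPT6B was at 49.8, 35.5 and 40.2 CPM in fc2 and 28.5, 28.8 and 30.7 CPM in wt (0.51 ± 0.11, edgeR adjusted p = 0.0458). RPN11 was at 88.5, 79.9 and 77.6 CPM in fc2 and 67.5, 64.3 and 65.4 CPM in wt (0.32 ± 0.07, edgeR adjusted p = 0.0455). Neither gene overlapped between the groups. The members summed to 3858, 3673 and 3655 CPM in fc2 and 3414, 3365 and 3256 CPM in wt, a ratio of 1.11.

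In "fc2 pub4 vs. wt – 24 h" 0.763% of all genes passed the test, and no member had an unadjusted p under 0.05 in edgeR or a call in DESeq2, where 20.8% of all genes had an unadjusted p under 0.05. The members' median log2 fold change was 0.05, with a range of -0.10 to 0.15. In "fc2 pub4 vs. fc2 – 24 h" 1.49% of all genes passed, 11 members had an unadjusted p under 0.05, against 22.3% of all genes, and DESeq2 called no member. The median was -0.11. RPT6B was at 29.9, 34.8 and 31.5 CPM in fc2 pub4 and 49.8, 35.5 and 40.2 CPM in fc2 (-0.38 ± 0.12, edgeR adjusted p = 0.0787), close together in 1 library of each. The members summed to 3383, 3510 and 3491 CPM in fc2 pub4, a ratio of 1.03 to wt and 0.928 to fc2.

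The light conditions were then compared within each genotype. In wt, 21 of the 42 members were lower in cycling light than in 24 h light and none was higher, where 16.1% of all genes tested were lower. The median log2 fold change was -0.22. RPT6B was at 19.4, 17.6 and 17.5 CPM in cycling light and 28.5, 28.8 and 30.7 CPM in 24 h light (-0.69 ± 0.07). RPT3 (-0.56), RPT2A (-0.51), RPN10 (-0.48) and PAD2 (AT5G66140, -0.48) followed. The smallest decreases that passed the test were those of RPN11 (-0.21), PBF1 (-0.21), RPN1A (-0.23), RPN12A (AT1G64520, -0.25) and PBB2 (-0.28). RPT5A had a log2 fold change of 0.18 (edgeR adjusted p = 0.017). Scaled by library size alone, the median over all genes moved to -0.14 and 35 members were lower, where 4980 of all genes tested were lower, against 3154 with TMM. Without wt cycling replicate 1 or 2, 14 members were lower.

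In fc2, 4 members were higher in cycling light and 1 was lower, where 22.7% of all genes were higher and 21.3% lower. The 4 were RPT1A (0.45 ± 0.11), RPT5A (0.40 ± 0.07), RPN7 (AT4G24820, a lid subunit, 0.35 ± 0.09) and PBD1 (AT3G22630, 0.32 ± 0.08), and RPT2B was lower (-0.37 ± 0.07). RPT1A was at 261, 245 and 196 CPM in cycling light and 179, 172 and 157 CPM in 24 h light. RPT2B was at 51.2, 50.8 and 51.0 CPM in cycling light and 66.9, 61.6 and 67.1 CPM in 24 h light. Neither gene overlapped between the lights. The members' median was 0.10. The number of higher members rested on single libraries: it was 13 without fc2 cycling replicate 3, 2 without fc2 24 h replicate 1, and 1 without any of the other 4.

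In fc2 pub4, 24 members were lower in cycling light and none was higher, where 19.4% of all genes were lower, with a median of -0.25. RPT6B was at 17.3, 18.8 and 17.1 CPM in cycling light and 29.9, 34.8 and 31.5 CPM in 24 h light (-0.84 ± 0.08). PBD2 (-0.59), PAD1 (AT3G51260, -0.52), PBG1 (-0.50) and RPT5B (-0.50) followed, and PAF1 (AT5G42790, -0.22), PBC1 (AT1G21720, -0.24), PAA2 (-0.25), RPN11 (-0.26) and PBA1 (-0.26) were the smallest decreases that passed. Of the members that were lower in cycling light, 18 were so in both fc2 pub4 and wt. This is 75% of the 24 in fc2 pub4 and 85.7% of the 21 in wt. These comparisons share no library. In wt 16.1% of all genes tested were lower. The share of all genes lower in both genotypes was not computed, so the overlap cannot be set against a background. The members' summed level in cycling light was 0.841 of that in 24 h light in fc2 pub4 and 0.860 of it in wt. In fc2 it averaged 4094 CPM in cycling light and 3729 CPM in 24 h light, with overlap of the libraries.

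**Figure D4:**
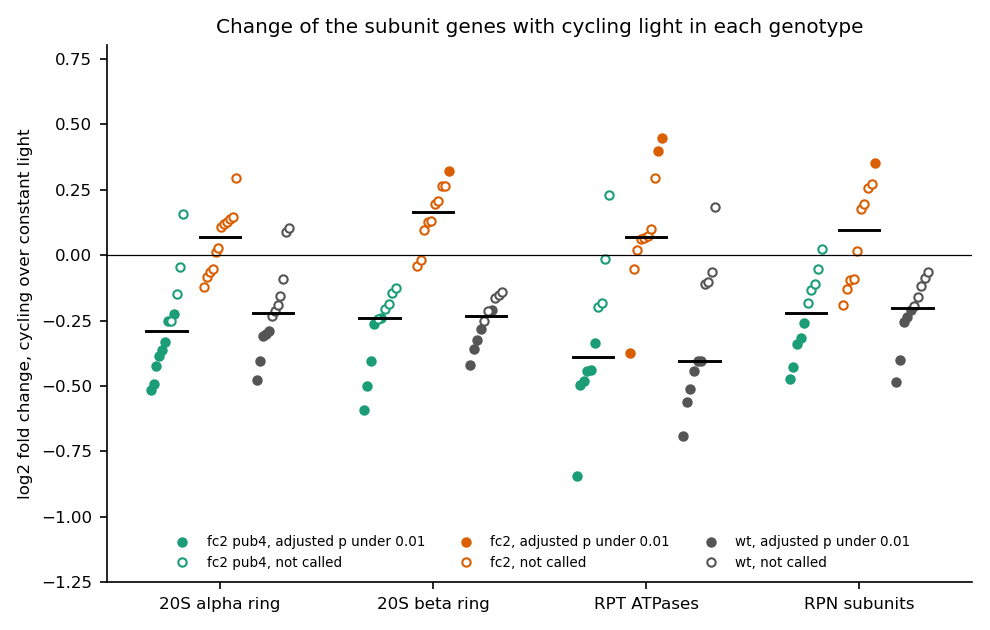
Log2 fold change of cycling over 24 h light (y axis) of the 42 subunit genes by part of the complex (x axis) in fc2 pub4, fc2 and wt; each point is a gene and filled points passed an adjusted p under 0.01. In fc2 pub4 24 genes and in wt 21 genes are filled below 0, while in fc2 4 genes are filled above 0 and 1 below.

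Whether the light change differed between genotypes was tested with an interaction term over the 12 libraries of each pair of genotypes. Between fc2 and wt it was higher in fc2 for 19 members and lower for none, where 15.3% of all genes tested were higher, and the members' median was 0.37. The largest differences that passed the test were those of RPT3 (0.88 ± 0.11, edgeR adjusted p = 3.06e-05), PBD2 (0.65 ± 0.13), RPT2A (0.63 ± 0.11), RPT1A (0.58 ± 0.13) and PBG1 (0.57 ± 0.14). RPT6B, the member with the largest fold change of fc2 over wt in cycling light, did not pass this test. The smallest that passed were PBE1 (0.33), PBB1 (0.36), PAD2 (0.41), RPN10 (0.41) and PBB2 (0.44). The count was 30 without fc2 cycling replicate 3, 11 without fc2 cycling replicate 2 and 12 without wt cycling replicate 2.

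Between fc2 pub4 and wt no member had an interaction that passed the test, where 0.248% of all genes did. With edgeR 1 member had an unadjusted p under 0.05, against 16.3% of all genes, and DESeq2 called none. Between fc2 pub4 and fc2 the light change was lower in fc2 pub4 for 20 members and higher for none, where 14.2% of all genes were lower, with a median of -0.39. PBD2 (-0.87 ± 0.12), RPT6B (-0.81 ± 0.21), RPT3 (-0.80 ± 0.11), RPT1A (-0.65 ± 0.13) and PBG1 (-0.64 ± 0.14) had the largest differences, and PBB1 (-0.34), PBC2 (-0.38), PAG1 (AT2G27020, -0.39), RPN10 (-0.40) and PAD1 (-0.41) the smallest that passed. This comparison shares the fc2 libraries with the one between fc2 and wt. The count was 33 without fc2 cycling replicate 3. It was 10 without fc2 cycling replicate 1 or 2, fc2 24 h replicate 3 or fc2 pub4 24 h replicate 3. It was 11 to 13 without fc2 24 h replicate 2, fc2 pub4 cycling replicate 1 or 2, or fc2 pub4 24 h replicate 2.

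The regulators and assembly factors of the proteasome were measured alongside. Of the 9 tested, 7 rose in fc2 against wt in cycling light and none fell (median log2 fold change 0.59). Of all genes tested, 21.8% rose there. NAC053 (AT3G10500), one of the transcription factors that act on the subunit genes, was at 42.8, 47.5 and 39.5 CPM in fc2 and 19.3, 19.7 and 15.7 CPM in wt (1.26 ± 0.11, edgeR adjusted p = 1.68e-05). NAC078 (AT5G04410), the other one, was at 159, 157 and 141 CPM in fc2 and 128, 135 and 128 CPM in wt and did not pass the test (0.24, edgeR adjusted p = 0.0109), although the groups did not overlap. PA200 (AT3G13330), an alternative activator of the core particle, was at 212, 226 and 185 CPM in fc2 and 93.6, 96.1 and 85.5 CPM in wt (1.19 ± 0.08). The fold changes of NAC053 and PA200 were at or above that of RPT6B, the largest among the 42 members in this comparison.

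CDC48B (AT3G53230), one of the genes for the unfoldase CDC48 that extracts tagged proteins from membranes and complexes, was at 48.8, 43.2 and 31.8 CPM in fc2 and 7.61, 10.9 and 8.61 CPM in wt (2.21 ± 0.17). CDC48A (AT3G09840), the more abundant gene, averaged 572 CPM in fc2 and 328 CPM in wt (0.81). The UMP1-type maturation factor AT1G67250 (0.59), the proteasome inhibitor-like protein AT3G53970 (0.58) and AT2G26780 (0.55) also rose. CDC48C had a log2 fold change of -0.20 and did not pass the test, and AT5G38650, on the same list, had 0 counts in every library. Another gene on the same strand, AT5G38660, overlaps 93.4% of its exons. CDC48B was the only gene of the 4 lists beside the members that passed the test in fc2 against wt in 24 h light (1.71 ± 0.15). It was at 37.8, 26.6 and 27.2 CPM in fc2 and 9.65, 10.5 and 7.86 CPM in wt there. Of all genes tested, 0.315% passed in either direction.

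**Figure D5:**
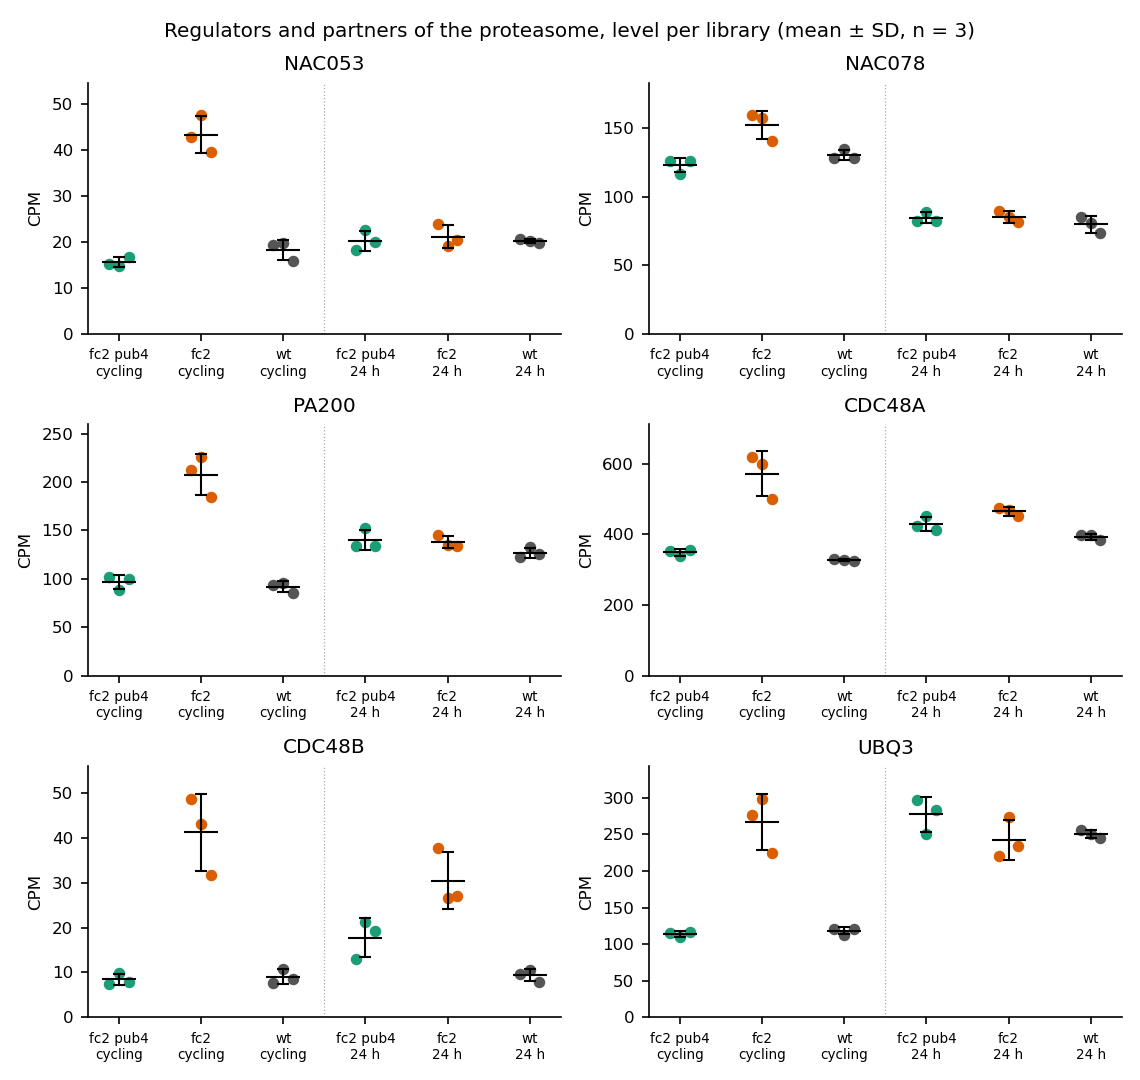
CPM (y axis, from 0) of NAC053, NAC078, PA200, CDC48A, CDC48B and UBQ3 in each library (points), with the group mean and SD (bar and whiskers, n = 3), for fc2 pub4, fc2 and wt in cycling and 24 h light. NAC053 was at 39.5 to 47.5 CPM in fc2 in cycling light and at 15.7 to 19.7 CPM in wt.

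In fc2 pub4 in cycling light NAC053 was at 15.1, 14.8 and 16.8 CPM, below every fc2 library (-1.48 ± 0.09 against fc2) and not different by the test from wt (-0.21, edgeR adjusted p = 0.14). PA200 was at 102, 88.8 and 99.6 CPM in fc2 pub4 (-1.11 ± 0.09 against fc2; 0.09 against wt, edgeR adjusted p = 0.36). NAC078 was lower in fc2 pub4 than in fc2 (-0.32 ± 0.07) and had a log2 fold change of -0.08 against wt. Of the 9 regulators tested, fc2 pub4 had 8 below their fc2 level by the test, where 19% of all genes tested fell. None passed the test against wt, where 1243 of 19658 genes were higher and 1577 lower. In 24 h light NAC053 was at 18.3, 22.6 and 19.9 CPM in fc2 pub4, 23.8, 19.1 and 20.5 CPM in fc2 and 20.7, 20.2 and 19.7 CPM in wt, with overlap of all 3 genotypes.

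The light changes of the 2 NAC genes differed. NAC078 was higher in cycling than in 24 h light in all genotypes, by 0.55 in fc2 pub4, 0.82 in fc2 and 0.71 in wt on the log2 scale, and all 3 changes passed the test. NAC053 was lower in fc2 pub4 (-0.37 ± 0.10), higher in fc2 (1.01 ± 0.10) and did not pass in wt (-0.15). PA200 was lower in fc2 pub4 (-0.53), higher in fc2 (0.57) and lower in wt (-0.47). The interaction with light between fc2 and wt was 1.18 ± 0.15 for NAC053, 1.06 ± 0.11 for PA200 and 0.13 for NAC078 (edgeR adjusted p = 0.311). Between fc2 pub4 and fc2 it was -1.40 ± 0.15 for NAC053, -1.11 ± 0.12 for PA200 and -0.29 for NAC078 (edgeR adjusted p = 0.0293).

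Of 14 further subunit genes, mostly other copies of RPN and RPT genes, 7 rose in fc2 against wt in cycling light and none fell (median 0.32). Of all genes tested, 21.8% rose. The 7 were RPN8B (0.72), RPN9B (0.62), PBE2 (0.55), RPN3B (0.48), RPN2B (0.43), the ubiquitin receptor RPN13 (0.39) and RPN9A (0.28). In fc2 pub4 against fc2, 8 of the 14 fell, where 19% of all genes tested fell. Of 17 tested genes for ubiquitin, its activating enzymes and shuttle proteins, 6 rose in fc2 against wt in cycling light and 1 fell (median 0.06). Of all 20122 genes tested, 4377 rose and 4233 fell. The polyubiquitin genes UBQ3 (1.18) and UBQ4 (0.55), the shuttle genes DDI1 (0.79), DSK2B (0.76), DSK2A (0.48) and RAD23D (0.30) rose, and the shuttle gene RAD23C fell (-0.48). In fc2, UBQ3 was at 225 to 299 CPM in cycling and 221 to 273 CPM in 24 h light, with overlap. In wt it was at 113 to 121 and 246 to 256 CPM. UBQ4 was at 60.5 to 69.1 and 64.3 to 72.7 CPM in fc2, and 44.7 to 46.0 and 62.1 to 69.2 CPM in wt. DDI1, DSK2B, DSK2A and RAD23D were higher in every fc2 library in cycling than in 24 h light. Exact 50-base stretches repeated in the genome make up 1.44% of UBQ3, 1.83% of UBQ4 and up to 10.7% of a polyubiquitin gene (UBQ11). They make up 7.43% of DSK2A and 8.13% of DSK2B. The counts of the polyubiquitin and DSK2 genes are therefore uncertain. Of the 10 genes of the COP9 signalosome, a complex related to the lid of the regulatory particle, CSN8 rose (0.55) and the other 9 did not pass the test (median 0.19). Over all genes tested, 21.8% rose.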

How the data were processed

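Poly(A) RNA of leaves was sequenced as 18 libraries (6 groups of 3; single-end reads of 50 bases). The deposited counts are raw read counts per TAIR10 locus made by the authors, who name HISAT2 (version 2.1.0) and StringTie (version 1.3.4); how reads on overlapping genes, repeated sequence or the opposite strand were counted is not given in the sources used here. The labels give 19 d of growth, and the study's methods give a day less. Libraries differ by more than sampling noise, but nothing says that they are separate experiments, so p-values measure only the spread between these libraries.

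Counts were tested with edgeR (version 4.0.16, R 4.3.3): filterByExpr, TMM scaling, quasi-likelihood tests on the 6 libraries compared (12 for interactions), Benjamini-Hochberg adjustment over all genes tested, threshold 0.01. DESeq2 (version 1.42.0), other scalings and filters, a fit over all 18 libraries, a threshold of 0.05, a replicate block and leaving out each library were alternatives. The script was tested on simulated data. CPM use TMM-scaled library sizes. Levels between genes are divided by the length of annotated exons. Coordinates and promoters come from the RefSeq assembly TAIR10.1, whose annotation holds all 111 loci of the lists.

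The members and lists were chosen with earlier results of these data known. Among the members called, the 5 with the largest and the 5 with the lowest log2 fold change are named in each comparison (10 each in fc2 against wt in cycling light). NAC053, NAC078 and PA200 are given beside them, with the paralogues of some named members.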

Additional observations from a re-analysis of the deposited data

Results flagged for a closer look

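The light change of the subunit genes differed between genotypes by a test of the difference itself, the interaction term in edgeR over 12 libraries. Between fc2 and wt the difference was positive for 19 of the 42 members. The named members had interaction log2 fold changes of 0.88 (RPT3), 0.65 (PBD2), 0.63 (RPT2A), 0.58 (RPT1A), 0.57 (PBG1), 0.44 (PBB2), 0.41 (RPN10), 0.41 (PAD2), 0.36 (PBB1) and 0.33 (PBE1), beside 1.18 for NAC053 and 1.06 for PA200.

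Between fc2 pub4 and fc2 the difference was negative for 20 members. The named members had interaction log2 fold changes of -0.87 (PBD2), -0.81 (RPT6B), -0.80 (RPT3), -0.65 (RPT1A), -0.64 (PBG1), -0.41 (PAD1), -0.40 (RPN10), -0.39 (PAG1), -0.38 (PBC2) and -0.34 (PBB1), beside -1.40 for NAC053 and -1.11 for PA200. Both sets rest on the same fc2 libraries. Groups of 3 libraries are too small for a test of single outlying libraries.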

How the results depend on the processing

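No called result changed sign under any alternative. Among values that did not pass a test or had none, all in fc2 pub4 against wt in cycling light, scaling by library size alone turned the log2 ratio of the summed alpha genes to 0.06, against -0.04, and the log2 fold change of NAC078 to 0.01, against -0.08. The members' median there was -0.00061 without wt cycling replicate 2, against 0.03 with all libraries. Scaled by library size alone, the members called higher were 3 in fc2 pub4 against wt in cycling light, 11 in the light change of fc2 and 34 in the interaction of fc2 and wt. Those called lower were 35 in the light change of wt and 39 in the interaction of fc2 pub4 and fc2. Over all genes tested, those called higher were 2273 (1243 in the main fit), 5581 (4587) and 4968 (3122) in the first 3 of these comparisons. Those called lower were 4980 (3154) in the light change of wt and 4882 (2916) in the interaction of fc2 pub4 and fc2. This scaling moved the median log2 fold change of all genes to 0.23 in fc2 against wt in cycling light, -0.12 in fc2 pub4 against fc2, 0.10 in fc2 pub4 against wt in 24 h light, -0.14 in the light changes of wt and fc2 pub4, and 0.19 and -0.20 in the interactions of fc2 and wt and of fc2 pub4 and fc2. At a threshold of 0.05 there were 2 higher and 1 lower in fc2 pub4 against wt in cycling light, 2 higher in fc2 against wt in 24 h light, 1 higher in the light change of wt, 11 higher and 2 lower in that of fc2, 2 higher in that of fc2 pub4, 30 higher in the interaction of fc2 and wt, and 32 lower in that of fc2 pub4 and fc2. The fit over all 18 libraries gave 0 higher in fc2 pub4 against wt in cycling light, 12 higher in the light change of fc2 and 1 higher in that of fc2 pub4. DESeq2 gave 2 higher in fc2 against wt in 24 h light and 1 higher in the light change of fc2 pub4, and a minimum of 10 counts in every library also gave 1 there. The cause of these shifts was not tested. Calls over all genes are not given for the threshold of 0.05, the other fits or the fits with 1 library left out. The member counts at those settings therefore have no background beside them.

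With 1 library left out, the counts ranged from 31 to 40 higher in fc2 against wt in cycling light, 0 to 1 higher in fc2 pub4 against wt, 27 to 39 lower in fc2 pub4 against fc2, 14 to 25 lower in the light change of wt, 1 to 13 higher in that of fc2, 0 to 1 higher and 17 to 23 lower in that of fc2 pub4, 11 to 30 higher in the interaction of fc2 and wt, and 10 to 33 lower in that of fc2 pub4 and fc2. Of the 20 members named in fc2 against wt in cycling light, 13 were called in every such fit. With 2 libraries in a group, fewer samples enter the test.

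Libraries of the same number share only that number: in no comparison did all same-numbered pairs correlate above 0.1, and in 1 of 9 every library correlated best with its own number. The replicate block gave 36 members higher in fc2 against wt in cycling light, 0 higher in fc2 pub4 against wt, 36 lower in fc2 pub4 against fc2, 0 in every comparison of genotypes in 24 h light, 17 lower in the light change of wt, 5 higher in that of fc2, 19 lower in that of fc2 pub4, and interactions of 19 higher (fc2 and wt), 0 (fc2 pub4 and wt) and 18 lower (fc2 pub4 and fc2). Of the 100 named results, 85 kept their call under the block and 15 did not.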
